A study of Mus musculus with 8 samples.

Results

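The 35 genes described here encode subunits of the Polycomb repressive complexes PRC1 and PRC2 and the enzymes that remove their marks. They were chosen by name as a fixed list: 5 PRC2 core genes, 5 PRC2 accessory genes, 2 RING ligase genes, 6 PCGF genes, 6 CBX and PHC genes, 6 genes of variant PRC1 and 5 genes of opposing enzymes. All 35 had 1 identifier among the 46983 in the count table, and all 35 were among the 15638 genes with enough counts to test. RNA from tail epidermis of 8 mice aged 8 weeks was sequenced, 1 library per mouse. The 4 SKO mice were K14-Cre/+ Ppp1r8 fl/-, with 1 floxed allele and 1 null allele of Ppp1r8, which encodes NIPP1. The 4 CTR mice were K14-Cre/+ Ppp1r8 fl/+, so that both groups carried the Cre transgene and a floxed allele. The keratin 14 promoter that drives Cre is active in basal keratinocytes, so other cells of the sheet, such as melanocytes and immune cells, kept the floxed allele in both groups, and the null allele was present in every cell of SKO mice. Sex and litter of the mice were not in the labels used here.

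PRC2 places methyl groups on lysine 27 of histone H3, a mark of silenced genes. PRC1 attaches ubiquitin to histone H2A. In canonical PRC1 a CBX protein reads the PRC2 mark and PHC proteins compact the chromatin, whereas variant PRC1 holds RYBP or YAF2 in place of CBX. In epidermis these complexes are known to keep the genes of other lineages and the Cdkn2a locus silent in progenitor cells. NIPP1 sits in the nucleus, where it steers the phosphatase PP1, and is known to bind the PRC2 proteins EED and EZH2, which is why the RNA levels of the complexes' own subunits are of interest in these mice.

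Library totals ranged from 16696212 to 21571935 counts, and the fewest counts of any Polycomb gene in any library were 27, for Phf19. Values per library are normalised CPM, counts scaled to library size. Ppp1r8 had 28.4 to 47.4 CPM in SKO and 34.7 to 41.6 CPM in CTR (adjusted p = 0.789, edgeR quasi-likelihood test). These gene-level counts sum over all exons and do not check the genotype labels. The sheet held keratinocyte RNA as labelled: the sum of 6 basal keratinocyte markers was 16545 to 17256 CPM in SKO and 17263 to 19344 CPM in CTR. Counts of the Y-linked genes Uty, Kdm5d, Ddx3y and Eif2s3y were 0 in all libraries, so no library of either group showed RNA of male mice.

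All 35 Polycomb genes were detected in every library, and SKO epidermis had lower levels of several PRC2 accessory and CBX transcripts, with changes of modest size. By edgeR's quasi-likelihood test with Benjamini-Hochberg adjustment over all tested genes (threshold 0.05), 8 of the 35 fell (Ezh2, Mtf2, Phf19, Aebp2, Cbx2, Cbx6, Cbx7 and Bcor) and 2 rose (Pcgf2 and Bap1). Together these 10 were 28.6% of the list, against 23.7% of all 15638 genes, so the share was close to the background. Among all genes, 11.5% were higher and 12.2% lower in SKO. No member changed by 2-fold or more, whereas 7.14% of all genes did: log2 fold changes (SKO over CTR) of the members ran from -0.72 to 0.34. Their median was -0.07, against -0.00 for all genes, and their median absolute log2 fold change was 0.17, against 0.22. The libraries of both groups did not overlap for 10 members, which is also 28.6%, against 26.2% of all genes. At a mean of at least 10 CPM, 9 of 33 members were called, against 24.6% of genes at that level. In whole tissue, fewer cells of a type and less RNA per cell cannot be told apart.

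The number of members called moved with single libraries, as did that of all genes. It was 4 without SKO 2 (17.8% of all genes called in the same fit), 5 without SKO 4 (16.3%), 5 without CTR 3 (16.9%) and 6 without CTR 2 (16.6%). It was 7 without SKO 1 (18.9%), 8 without CTR 1 (17.5%), 8 without CTR 4 (20.7%) and 13 without SKO 3 (27.6%). Mtf2, Phf19, Cbx6 and Cbx7 remained called in each of these 8 fits.

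**Figure D1:**
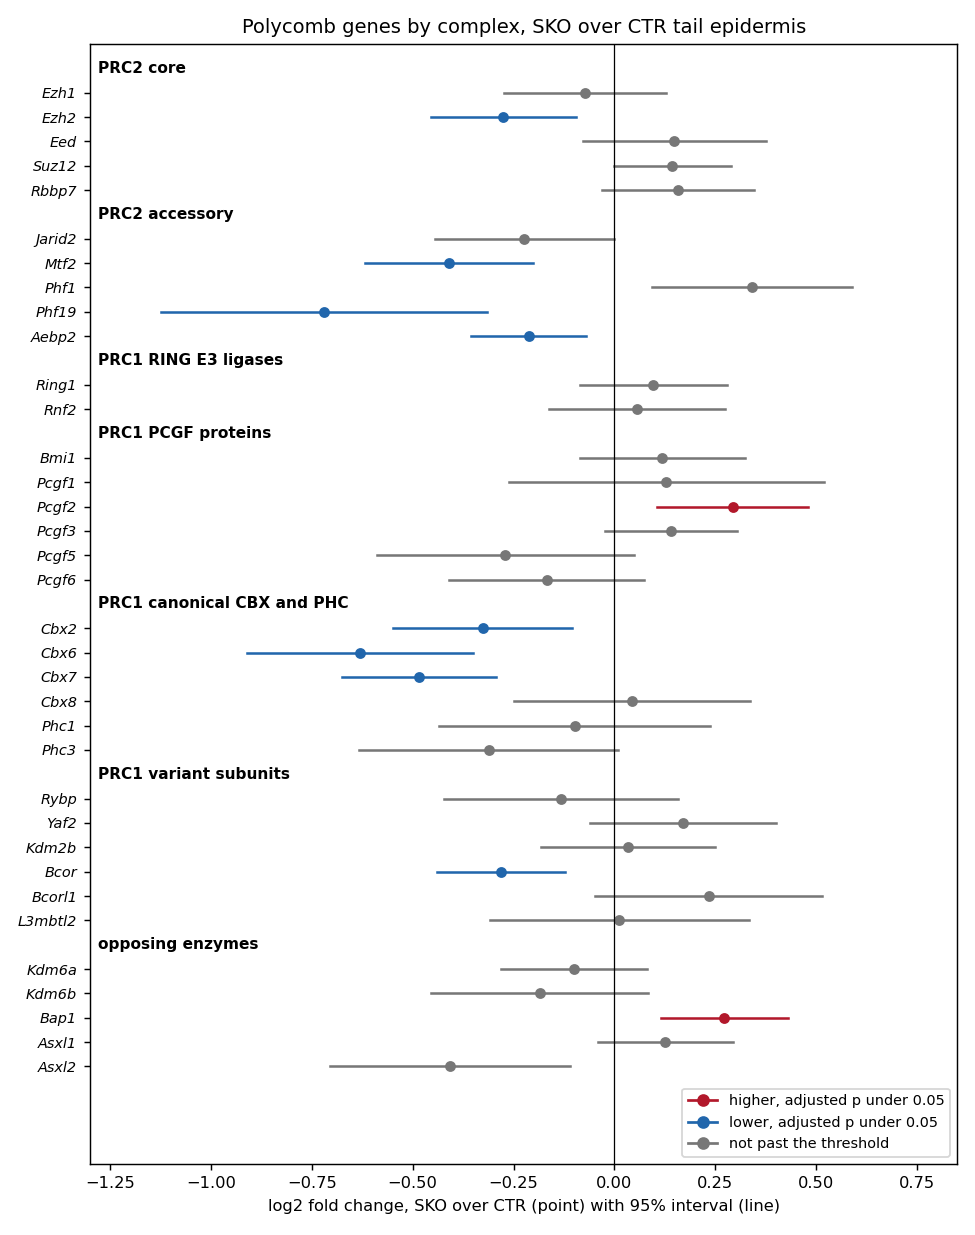
Log2 fold change (SKO over CTR) of each of the 35 Polycomb genes, grouped by complex, with the 95% interval of the edgeR fit as a line. The 8 genes past the threshold on the lower side lie mainly in the PRC2 accessory and the CBX and PHC groups, Phf19 lies farthest left at -0.72, and the 2 on the higher side are Pcgf2 and Bap1.

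The genes whose RNA changed can be viewed beside the DNA before their RefSeq starts. RefSeq promoter windows (build GRCm38.p6) were at hand for 30 of the 35 members, as 40 entries, and none for Cbx2, Yaf2, Pcgf1, Kdm6b and Rybp. The stretches shown are the parts of the 250 bases before the RefSeq start that no annotated GENCODE exon covers, written 5′ to 3′ on the strand of the gene. They come from 4 genes that fell (Cbx7, Phf19, Ezh2 and Mtf2) and from both genes that rose. The stretches of Cbx7, Ezh2 and Pcgf2 lie inside the GENCODE span of the gene, whose outermost start is farther upstream. Which start was used in these libraries was not tested. Capitals mark the GC box GGGCGG, the CCAAT box and the E2F-type sites TTCCCGC and, in a second form, TTGGCGC, on either strand, and overlapping matches were each counted.
Cbx7, chr15:79932769-79932896, minus strand: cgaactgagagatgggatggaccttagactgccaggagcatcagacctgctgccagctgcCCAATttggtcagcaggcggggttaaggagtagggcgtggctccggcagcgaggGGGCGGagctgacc
Phf19, chr2:34914027-34914215, minus strand: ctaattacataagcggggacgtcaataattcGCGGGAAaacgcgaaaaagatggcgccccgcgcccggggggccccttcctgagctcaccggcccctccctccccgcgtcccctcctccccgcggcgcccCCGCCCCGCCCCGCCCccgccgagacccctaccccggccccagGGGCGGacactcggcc
Ezh2, chr6:47595059-47595183, minus strand: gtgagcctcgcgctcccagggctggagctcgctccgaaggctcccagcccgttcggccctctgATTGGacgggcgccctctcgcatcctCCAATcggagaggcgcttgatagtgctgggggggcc
Mtf2, chr5:108065424-108065673, plus strand: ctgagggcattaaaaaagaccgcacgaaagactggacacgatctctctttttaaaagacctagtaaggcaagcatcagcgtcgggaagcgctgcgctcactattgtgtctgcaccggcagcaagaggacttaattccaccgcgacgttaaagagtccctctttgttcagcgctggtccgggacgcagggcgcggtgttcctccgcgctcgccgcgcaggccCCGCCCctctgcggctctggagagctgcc
Pcgf2, chr11:97699649-97699898, minus strand: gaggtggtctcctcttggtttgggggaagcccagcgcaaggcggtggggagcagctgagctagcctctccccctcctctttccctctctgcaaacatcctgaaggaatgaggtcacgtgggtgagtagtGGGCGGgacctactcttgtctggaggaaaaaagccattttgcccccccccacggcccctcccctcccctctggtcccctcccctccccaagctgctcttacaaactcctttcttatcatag
Bap1, chr14:31251318-31251449, plus strand: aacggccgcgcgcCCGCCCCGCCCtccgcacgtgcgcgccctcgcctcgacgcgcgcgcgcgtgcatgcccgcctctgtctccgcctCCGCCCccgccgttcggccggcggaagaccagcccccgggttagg
A GC box occurred in 28 of the 40 member windows (70%), against 32.7% of all 32851 windows of that length. The set of all windows was not limited to genes detected in epidermis, as the members were. Some member windows also overlap each other, such as those of Bcor. The E2F-type letters occurred in 5 member windows (12.5%), against 5.62% of all windows, and these belonged to Asxl1, Pcgf5, Phf19 and Suz12, of which only Phf19 was called. CCAAT occurred in 11 member windows (27.5%), against 33.8%. Member windows held a median of 20 CpG dinucleotides, against 6 in all windows. CpG content varied widely among the examples below, and its relation to the direction of change was not tested. Of the genes that rose, Pcgf2 had 5 CpG in its 250 bases and Bap1 had 43. Mtf2, which fell, had 23 in the window shown and 2 in its other window. Matches describe the letters in these windows.

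In the PRC2 core, Ezh2 was the only 1 of 5 genes called, with a modest fall in SKO epidermis (20%, against 23.7% of all genes). Ezh2 encodes the methyltransferase that is typical of dividing cells (ENSMUSG00000029687.16, GRCm38 chromosome 6, 47530139 to 47595341). Ezh2 had 33.9, 34.9, 33.3 and 39.4 CPM in SKO 1 to 4, against 40.9, 41.8, 46.5 and 42.1 CPM in CTR 1 to 4. Every SKO library lay below every CTR library, and SKO 4 lay closest to them. The log2 fold change was -0.28 (SE 0.08, adjusted p = 0.0334), or 1.21-fold lower. The call ended without SKO 1, SKO 2, SKO 3, CTR 2, CTR 3 or CTR 4 (adjusted p up to 0.0904), while the log2 fold change stayed between -0.33 and -0.24. It also ended with upper-quartile factors, with no count filter and with the exon length trend removed (adjusted p = 0.0875 for the last).

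Ezh1, the second PRC2 methyltransferase, known from non-dividing cells, had 65.7, 66.6, 71.4 and 75.0 CPM in SKO and 68.4, 84.4, 75.0 and 65.1 CPM in CTR. The groups overlapped (log2 fold change -0.07, 95% interval -0.27 to 0.13, adjusted p = 0.593). Eed, which binds the methyl mark and stimulates the enzyme, had 31.5, 25.8, 25.7 and 25.5 CPM in SKO and 27.9, 22.0, 24.2 and 23.9 CPM in CTR (log2 fold change 0.15, adjusted p = 0.315). The scaffold gene Suz12 had 106, 111, 108 and 119 CPM in SKO and 107, 96.8, 97.4 and 101 CPM in CTR (log2 fold change 0.14, adjusted p = 0.136). For both genes the groups overlapped through CTR 1. Rbbp7, a histone-binding subunit encoded on the X chromosome, averaged 98.2 ± 7.68 CPM in SKO and 88.1 ± 7.93 CPM in CTR (SD, n = 4 each), without passing the test (adjusted p = 0.204).

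PRC2 binds accessory proteins in alternative sets: the Polycomb-like proteins MTF2, PHF1 and PHF19, which lead it to CpG-rich DNA, or JARID2 together with AEBP2. Here 3 of the 5 genes fell and none rose (60% called, against 23.7% of all genes). Mtf2 (ENSMUSG00000029267.17, chromosome 5, 108065674 to 108109004) had 35.2, 39.1, 34.9 and 35.1 CPM in SKO, against 51.4, 53.9, 42.4 and 43.9 CPM in CTR. The SKO libraries were tightly grouped and all lay below CTR, 1.33-fold lower on average (log2 fold change -0.41, SE 0.09, adjusted p = 0.0125). Phf19 (ENSMUSG00000026873.9, chromosome 2, 34893757 to 34914026) had 1.42, 1.97, 1.45 and 1.85 CPM in SKO, against 2.82, 2.45, 2.91 and 2.87 CPM in CTR. This gene had the largest fold change of the 35, 1.65-fold lower (log2 fold change -0.72, SE 0.18, adjusted p = 0.0184), from 130 counts over the 4 SKO libraries and 214 over the 4 CTR libraries.

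Aebp2 (ENSMUSG00000030232.17, chromosome 6, 140622663 to 140678472) was the most abundant accessory gene, with 184, 181, 188 and 189 CPM in SKO, against 225, 219, 216 and 201 CPM in CTR. All SKO libraries lay below CTR, by 1.16-fold on average (log2 fold change -0.21, SE 0.06, adjusted p = 0.0373). The Aebp2 call ended without SKO 1, SKO 2, SKO 4, CTR 1, CTR 2 or CTR 3 (adjusted p up to 0.113), and also with upper-quartile factors, library totals or no count filter. With the exon length trend removed, its log2 fold change was -0.10 (adjusted p = 0.286). With mice of neighbouring numbers as a block, it was -0.21 (adjusted p = 0.0604). Jarid2 averaged 71.4 ± 10.7 CPM in SKO and 83.3 ± 2.91 CPM in CTR (log2 fold change -0.22, adjusted p = 0.130), and SKO 3 lay within the CTR range. Without SKO 3 it passed the threshold (adjusted p = 0.0155).

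Phf1 differed from its relatives in sign. Its values were 20.8, 19.9, 17.3 and 21.7 CPM in SKO and 17.1, 15.5, 17.0 and 13.2 CPM in CTR, without overlap, and the log2 fold change was 0.34 (95% interval 0.09 to 0.59, adjusted p = 0.0501), just outside the threshold. It was called in 7 of 19 alternatives: without SKO 3 (adjusted p = 0.0245), with RLE or upper-quartile factors, with a minimum of 1 CPM in 4 libraries, with DESeq2, with limma voom and with the robust fit. The exons of Phf1 overlap those of Cuta on the opposite strand over 39.3% of their length, and whether the authors counted by strand is unknown here, so reads of the 2 genes may be mixed. Cuta itself was not called (log2 fold change 0.17).

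The RING proteins are the ubiquitin ligases of every PRC1, and neither gene changed beyond its spread. Ring1 had 33.6, 32.2, 31.6 and 34.8 CPM in SKO and 30.5, 27.4, 32.2 and 33.5 CPM in CTR (log2 fold change 0.10, 95% interval -0.09 to 0.28, adjusted p = 0.418). Rnf2, which encodes RING1B, had 65.8, 64.3, 60 and 63.5 CPM in SKO and 71.1, 59.4, 62.7 and 50.7 CPM in CTR (log2 fold change 0.06, 95% interval -0.16 to 0.27, adjusted p = 0.709). For both genes the groups overlapped.

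Each PRC1 holds 1 of several PCGF proteins, which define its type. Among the 6 genes, Pcgf2 rose and no gene fell (16.7% called, against 23.7% of all genes). Pcgf2, which encodes the canonical PRC1 subunit MEL18 (ENSMUSG00000018537.16, chromosome 11, 97688823 to 97700497), had 52.1, 49.3, 42.6 and 50.5 CPM in SKO, against 43.3, 38.8, 37.8 and 38.8 CPM in CTR. Only SKO 3 lay below the highest CTR library. The gene was 1.23-fold higher (log2 fold change 0.29, SE 0.08, adjusted p = 0.0306). Its call ended without SKO 1, SKO 2, SKO 4, CTR 2, CTR 3 or CTR 4 (adjusted p up to 0.0827).

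Bmi1, the closest relative of Pcgf2 and a known regulator of the Cdkn2a locus, had 34.6, 37.5, 32.1 and 35.2 CPM in SKO and 35.8, 32.2, 27.7 and 32.5 CPM in CTR. These groups overlapped (log2 fold change 0.12, adjusted p = 0.371). The other 4 PCGF genes did not pass the test: Pcgf3 had a log2 fold change of 0.14, Pcgf1 of 0.13, Pcgf6 of -0.17 and Pcgf5 of -0.27. With the exon length trend removed, Pcgf3 passed the threshold (log2 fold change 0.25, adjusted p = 0.0235). Group means in CPM were 98.3 in SKO and 89.2 in CTR for Pcgf3, 3.84 and 3.52 for Pcgf1, 15.8 and 17.8 for Pcgf6, and 11.04 and 13.3 for Pcgf5.

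The CBX genes held the 2 smallest adjusted p-values of the list. CBX proteins carry the chromodomain that reads the PRC2 mark. Of the 6 CBX and PHC genes 3 were called (50%, against 23.7% of all genes). All 3 were lower, as were 12.2% of all genes, and all 3 were among the 4 CBX genes. Cbx7 (ENSMUSG00000053411.16, chromosome 15, 79915807 to 79971119) had 20.5, 19.6, 19.0 and 23.2 CPM in SKO, against 29.8, 29.3, 29.2 and 26.9 CPM in CTR. No SKO library reached the lowest CTR library. Cbx7 had a log2 fold change of -0.49 (SE 0.09), with the smallest adjusted p of the list (0.00407). Cbx6 (ENSMUSG00000089715.11, chromosome 15, 79823896 to 79834688) had 14.3, 15.6, 15.9 and 12.0 CPM in SKO, against 22.9, 25.9, 22.1 and 18.5 CPM in CTR. It was 1.55-fold lower (log2 fold change -0.63, SE 0.13, adjusted p = 0.00692), again without overlap. Cbx6 and Cbx7 lie on the minus strand as neighbours among the tested genes. Npcd shares 5.31% of the exon length of Cbx6 on the same strand and had 0 counts in all libraries.

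Cbx2 (ENSMUSG00000025577.7, chromosome 11, 119022962 to 119031270) had 53.0, 42.5, 47.6 and 40.2 CPM in SKO, against 63.2, 53.3, 59.1 and 54.3 CPM in CTR. Its highest SKO library lay just under its lowest CTR library, with a log2 fold change of -0.33 (SE 0.10, adjusted p = 0.0382). The Cbx2 call ended without SKO 2, SKO 4, CTR 1, CTR 3 or CTR 4 (adjusted p up to 0.104) and with upper-quartile factors or library totals. Cbx8 lies in the same cluster on chromosome 11 and averaged 15.04 ± 1.85 CPM in SKO and 14.6 ± 2.08 CPM in CTR (log2 fold change 0.04, 95% interval -0.25 to 0.34, adjusted p = 0.835). Phc1 and Phc3, which encode the polyhomeotic proteins that join PRC1 into larger assemblies, had log2 fold changes of -0.10 and -0.31 and did not pass the test. Phc3 ranged from 34.4 to 53.9 CPM in SKO and from 45.3 to 65.1 CPM in CTR, and it passed the threshold without SKO 3, its highest SKO library (edgeR adjusted p = 0.0426).

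In variant PRC1, Bcor was the only 1 of 6 genes called (16.7%, against 23.7% of all genes). BCOR is the corepressor of the PCGF1 complex. Bcor (ENSMUSG00000040363.14, chromosome X, 12036740 to 12160355) had 38.3, 38.0, 41.8 and 36.5 CPM in SKO, against 48.5, 48.1, 46.7 and 44.4 CPM in CTR. All SKO libraries lay below CTR, by 1.21-fold on average (log2 fold change -0.28, SE 0.07, adjusted p = 0.0191), and the call ended without SKO 2 or SKO 4 (adjusted p up to 0.0591). Its X-linked relative Bcorl1 averaged 14.9 ± 0.73 CPM in SKO and 12.6 ± 2.16 CPM in CTR and did not pass (log2 fold change 0.23, adjusted p = 0.206). The log2 fold changes of the other 4 genes were 0.03 for Kdm2b, whose protein brings PRC1 to CpG islands, 0.01 for L3mbtl2, -0.13 for Rybp and 0.17 for Yaf2. Exons of L3mbtl2 overlap those of Chadl on the opposite strand over 17.2% of their length, so this value may mix reads of both.

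Among the 5 genes of enzymes that oppose Polycomb marks, only Bap1 was called, and it rose (20%, against 23.7% of all genes). BAP1 removes ubiquitin from histone H2A in a complex with an ASXL protein. Bap1 (ENSMUSG00000021901.10, chromosome 14, 31251450 to 31259944) had 80.6, 80.0, 73.8 and 85.9 CPM in SKO, against 67.6, 62.4, 64.7 and 70.6 CPM in CTR. Every SKO library lay above every CTR library, and the gene was 1.21-fold higher (log2 fold change 0.27, SE 0.07, adjusted p = 0.0207). The Bap1 call ended without SKO 2, SKO 4, CTR 2 or CTR 3 (adjusted p up to 0.0664).

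Its partner gene Asxl2 had 42.8, 46.6, 65.1 and 47.3 CPM in SKO and 69.2, 71.5, 71.0 and 56.2 CPM in CTR. SKO 3 lay inside the CTR range, and the log2 fold change of -0.41 stood just outside the threshold (95% interval -0.71 to -0.11, adjusted p = 0.0506). Asxl2 was called in 8 of 19 alternatives: without SKO 3 or CTR 4 (adjusted p as low as 0.00485), with library totals, with no count filter, with DESeq2, with limma voom, with the robust fit, and with mice of neighbouring numbers as a block (log2 fold change -0.42, adjusted p = 0.0219). Asxl1 averaged 72.1 ± 5.75 CPM in SKO and 66.1 ± 2.88 CPM in CTR (log2 fold change 0.13, adjusted p = 0.247). Of the lysine 27 demethylases, the X-linked Kdm6a had 67.7, 76.2, 87.1 and 77.0 CPM in SKO and 81.1, 85.8, 84.4 and 78.8 CPM in CTR (log2 fold change -0.10, adjusted p = 0.394). Kdm6b had 66.2, 76.6, 81.1 and 56.7 CPM in SKO and 86.8, 86.9, 77.1 and 68.3 CPM in CTR (log2 fold change -0.19, adjusted p = 0.289). Both overlapped between the groups.

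**Figure D2:**
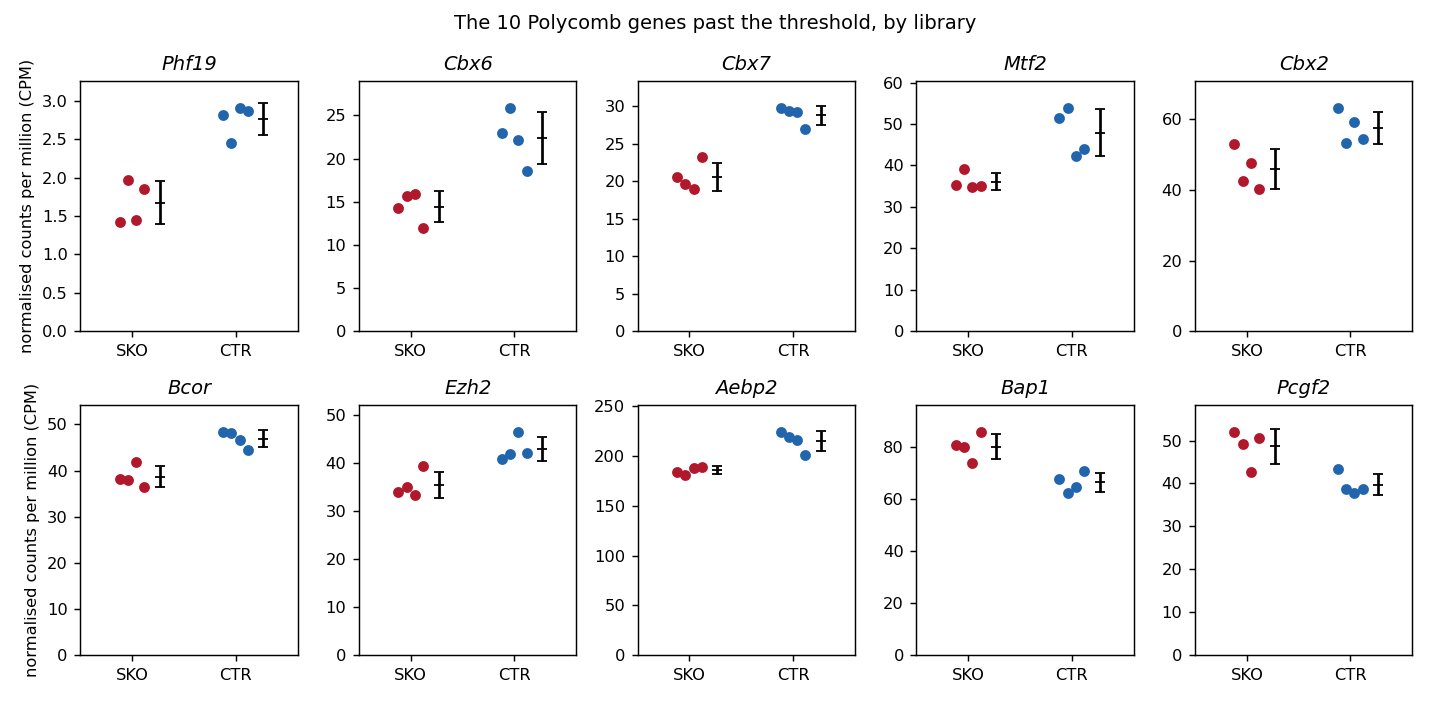
Normalised CPM of the 10 called Polycomb genes in each library (points, SKO left and CTR right in each panel, vertical axes from 0), with the group mean and SD beside the points. The groups touch in none but the Pcgf2 panel, where SKO 3 at 42.6 CPM lies under CTR 1 at 43.3 CPM.

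Levels were compared between genes per kilobase of annotated exon, in CPM per kb. Rbbp7 was the highest of the 35 at 33.8 CPM per kb in SKO and 30.3 in CTR, followed by Suz12 (22.4 in SKO and 20.3 in CTR) and Aebp2 (18.9 in SKO and 21.9 in CTR), of which Suz12 was the higher in SKO and Aebp2 in CTR. The methyltransferase genes were lower, with Ezh1 at 9.37 CPM per kb in SKO and 9.84 in CTR, and Ezh2 at 5.30 in SKO and 6.41 in CTR. Phf19 was the lowest, at 0.33 CPM per kb in SKO and 0.55 in CTR. Among the CBX genes of the list, Cbx2 was the most abundant per kb in both groups (10.8 in SKO and 13.5 in CTR), ahead of Cbx7 (3.17 in SKO and 4.44 in CTR), Cbx8 (4.09 in SKO and 3.97 in CTR) and Cbx6 (1.36 in SKO and 2.11 in CTR). Cbx7 thus stood below Cbx8 in SKO and above it in CTR, an order that was not tested.

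**Figure D3:**
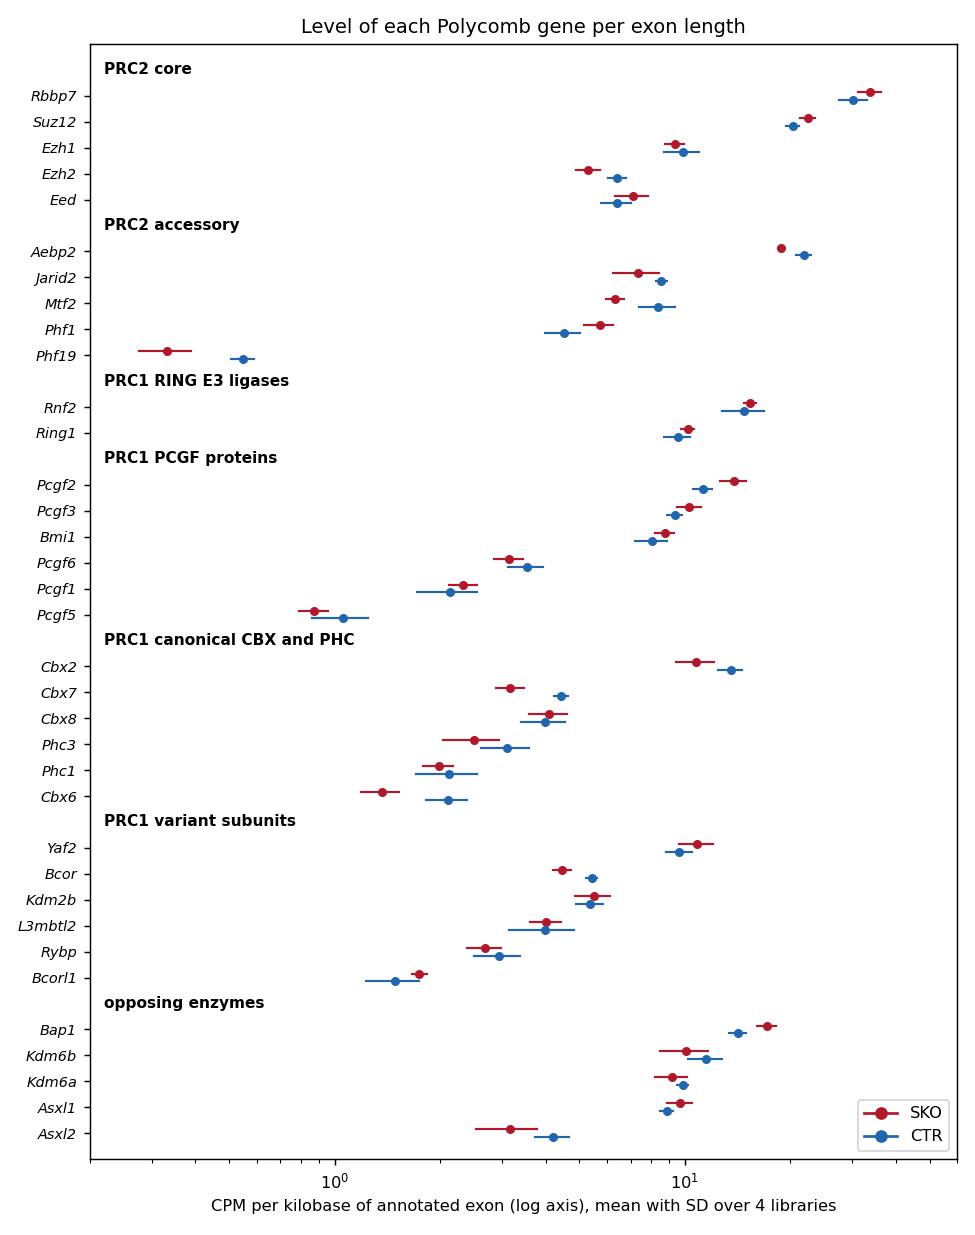
Mean CPM per kilobase of annotated exon (log axis) with SD over 4 libraries for each Polycomb gene, SKO above CTR in each row. Levels span from Phf19, below 1 CPM per kb in both groups, to Rbbp7 at 33.8 in SKO and 30.3 in CTR, and the 2 groups lie close together beside that span.

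Paralogs that can take the same place in a complex were compared as log2 ratios of counts per kb within each library, for 7 pairs. A two-sided exact permutation test over 70 assignments has a smallest possible p of 0.0286, so after adjustment over the 7 ratios a single ratio could not fall below 0.2, and the adjusted values here cannot show a difference in 1 pair alone. The Asxl2 over Asxl1 ratio was -1.87, -1.80, -1.31 and -1.53 in SKO, against values between -1.25 and -0.98 in CTR. These groups did not overlap, and the difference was -0.54 (exact p = 0.0286, adjusted p = 0.2). Ezh2 over Ezh1 was -0.80, -0.78, -0.95 and -0.77 in SKO and -0.59, -0.86, -0.53 and -0.47 in CTR, with CTR 2 inside the SKO range (difference -0.21, exact p = 0.114, adjusted p = 0.267). Bmi1 over Pcgf2 averaged -0.65 ± 0.09 in SKO and -0.48 ± 0.09 in CTR (difference -0.17, exact p = 0.0857, adjusted p = 0.267). The differences of the other 4 pairs were -0.29 for Rybp over Yaf2, 0.24 for Phc1 over Phc3, -0.09 for Kdm6b over Kdm6a and -0.03 for Rnf2 over Ring1, with exact p of 0.229 to 0.886.

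**Figure D4:**
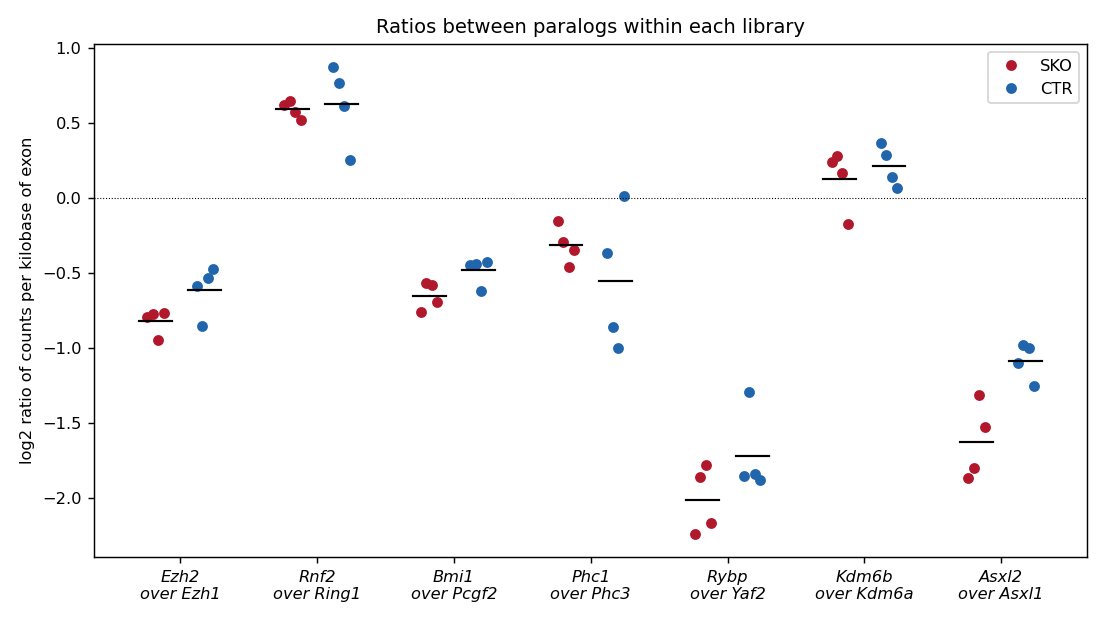
Log2 ratio of counts per kilobase between paralogs in each library (points, SKO left and CTR right in each pair; lines, group means; dotted line, equal levels). Asxl2 over Asxl1 is the pair without overlap between the groups, with means of -1.63 in SKO and -1.09 in CTR.

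Long members tended to be lower in SKO, as were long genes at large. Spearman's rho between log2 fold change and annotated exon length was -0.56 over the 35 members and -0.19 over 15598 genes, a description across genes, which are not independent replicates. In 5 equal groups of all genes from short to long exons, the median log2 fold change was 0.07, 0.08, 0.03, -0.04 and -0.11. The 17 members over the median exon length of 5698 bases had a median log2 fold change of -0.21, with 5 lower and 0 higher. The 18 others had a median of 0.11, with 3 lower and 2 higher. Over all genes of any length, 12.2% were lower and 11.5% higher. These shares were not split by exon length, so the member counts have no background of like length. When the trend over all genes was removed in a fit added after seeing the data, 9 of the 35 members were called (25.7%, against 24.5% of all genes): 8 of the 10 remained and Pcgf3 was gained. The log2 fold change was then -0.71 for Phf19, -0.51 for Cbx6, -0.43 for Cbx7, -0.37 for Mtf2 and -0.34 for Cbx2, and Ezh2 and Aebp2 lost their calls as given above.

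**Figure D5:**
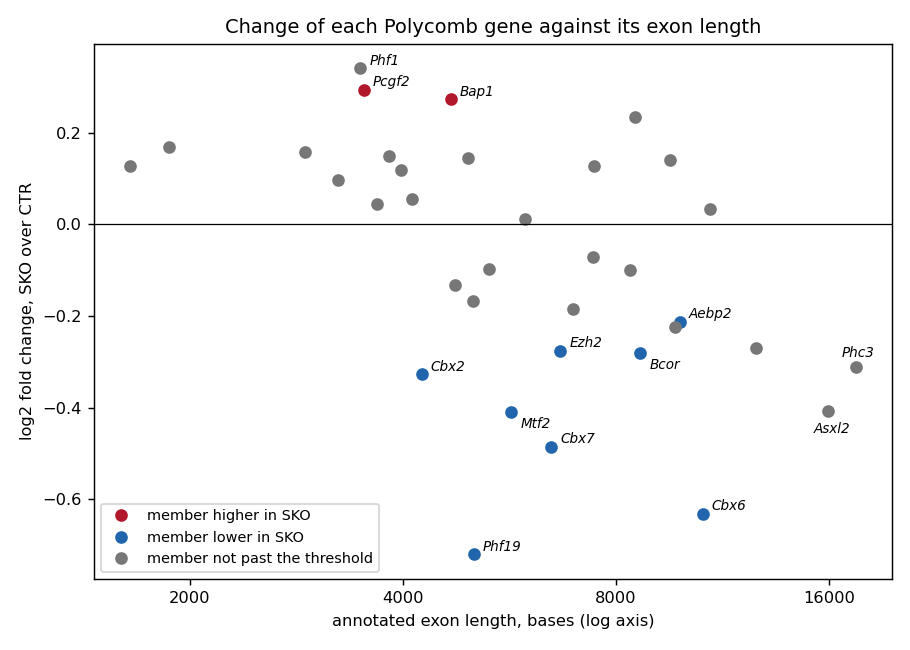
Log2 fold change (SKO over CTR) of each Polycomb gene against its annotated exon length in bases (log axis). The longest 2 genes, Phc3 and Asxl2, lie below 0, and both members that rose, Pcgf2 and Bap1, have fewer bases than the median of 5698.

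Other features of the sheet moved with the groups, and their calls stand beside 23.7% of all genes called. The sum of 6 suprabasal keratinocyte markers was 44794 to 62596 CPM in SKO and 22102 to 24373 CPM in CTR, with 4 genes higher and 1 lower. All 9 hair shaft and matrix markers were lower, with sums of 146 to 1078 CPM in SKO and 2793 to 4932 CPM in CTR, and 3 of 6 basal markers were lower. T cell markers summed to 13.4 to 25.1 CPM in SKO and 7.32 to 11.6 CPM in CTR, with 3 of 3 tested genes higher. Langerhans and dendritic cell markers summed to 351 to 482 CPM in SKO and 262 to 319 CPM in CTR, with 5 of 7 higher. Melanocyte markers summed to 319 to 537 CPM in SKO and 234 to 346 CPM in CTR, with 4 of 6 higher and 1 lower, and sebocyte markers to 5357 to 7579 CPM in SKO and 3286 to 4560 CPM in CTR, with 2 of 6 higher. No tested marker of macrophages, Merkel cells, fibroblasts or endothelial cells was called, and no marker of any of these lists was at 0 in every library of a group. SKO 3, without which 13 members were called, had the highest hair marker sum of the SKO libraries. The part of these cell types in the Polycomb values was not tested.

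Xist, the RNA that coats the inactive X chromosome, was 330, 436, 574 and 337 CPM in SKO, against 706, 994, 819 and 647 CPM in CTR (log2 fold change -0.92, SE 0.19, adjusted p = 0.00817). The groups did not overlap, and the Xist level and the genotype cannot be told apart in these libraries. With the Xist level as a further term, 0 of the 35 members were called by edgeR's quasi-likelihood test, and 77 genes were called in all. At an unadjusted p under 0.05, 4 members (11.4%) stood against 18.4% of all genes. The 10 called members kept their sign, but with the Xist term the log2 fold change was 0.05 for Pcgf2, 0.05 for Bap1, -0.20 for Cbx6 and -0.13 for Bcor. It was -0.36 for Ezh2, -0.90 for Phf19, -0.61 for Cbx7, -0.38 for Cbx2, -0.29 for Mtf2 and -0.17 for Aebp2. X-linked genes as a whole had a median log2 fold change of -0.05 and 17.9% of 588 were called. Of the X-linked members Rbbp7, Bcor, Bcorl1 and Kdm6a, Bcor was the only one called.

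Beyond the 35, a wider list of 41 further Polycomb subunits and partners had 36 tested genes, of which 3 rose and 5 fell (22.2%, near the background of 23.7%). Scml2, a PRC1-associated MBT protein gene on the X chromosome, was lower at 4.61 to 5.66 CPM in SKO, against 6.71 to 9.28 CPM in CTR (log2 fold change -0.63, adjusted p = 0.0129). The deacetylase gene Hdac1 (log2 fold change -0.48, adjusted p = 0.0221) and Usp16, which encodes an H2A deubiquitinase (log2 fold change -0.32, adjusted p = 0.00807), also fell, though the Hdac1 call ended without SKO 4, CTR 2 or CTR 3 (adjusted p up to 0.0617). Csnk2a2, a casein kinase 2 subunit gene found with variant PRC1, was higher at 72.0 to 85.5 CPM in SKO, against 58.7 to 63.8 CPM in CTR (log2 fold change 0.38, adjusted p = 0.00526). All values in these sentences are edgeR quasi-likelihood results with Benjamini-Hochberg adjustment.

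Of 16 genes known as Polycomb targets in skin, 9 could be tested, and 1 rose and 1 fell (22.2%, near the background of 23.7%). Cdkn2a, the locus of INK4A and ARF, had 2.78, 10.3, 2.25 and 1.16 CPM in SKO, against 0.05, 0.19, 0.06 and 0.09 CPM in CTR (log2 fold change 5.25, SE 0.87, adjusted p = 0.00307), from 324 counts in SKO and 8 in CTR. SKO 2 stood highest, and without it the log2 fold change was 4.25. Its neighbour Cdkn2b was not called, with 50.01 to 60.6 CPM in SKO and 43.8 to 55.9 CPM in CTR (log2 fold change 0.04, adjusted p = 0.809). Foxc2, a forkhead factor gene, was lower at 0.79 to 1.47 CPM in SKO, against 2.35 to 3.99 CPM in CTR (log2 fold change -1.40, adjusted p = 0.00425). The Merkel cell genes Krt8, Krt18 and Krt20, known to rise in mouse epidermis without PRC2, were not called (log2 fold changes -0.33, -0.24 and -0.14), and Atoh1, Sox2 and Isl1 did not pass the count filter. Of 24 S phase and mitosis genes 2 rose and 0 fell (8.33%, against 23.7% of all genes): Bub1, a spindle checkpoint kinase gene (log2 fold change 0.44, adjusted p = 0.0237), and Mcm6, a helicase subunit gene (log2 fold change 0.40, adjusted p = 0.0402). The Bub1 call ended without SKO 4, CTR 2, CTR 3 or CTR 4 (adjusted p up to 0.0562), and the Mcm6 call without SKO 1, SKO 2, SKO 4, CTR 1, CTR 2 or CTR 3 (adjusted p up to 0.104). The sum of the 24 was 971 to 1126 CPM in SKO and 889 to 1120 CPM in CTR.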

How the data were processed

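Per the labels' protocols, tail skin was treated with dispase (10 mg/ml, 5 h, 4 °C), and stranded poly-A libraries from 1 microgram RNA were read as single 75 bp reads. The authors deposited raw counts per gene, without normalization. Per the submitters' processing notes, which give no order, they used build GRCm38, featureCounts 1.4.6, STAR 2.4.1d and Bowtie2 2.2.4, together with edgeR 3.8.6, Cufflinks 2.1.1, SAMtools 1.1, bedtools 2.17.0 and cutadapt 1.7.1. Annotation release, strand setting and treatment of multi-mapping reads: not given in the sources used here.

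The test here was edgeR 4.0.16 under R 4.3.3 (glmQLFit and glmQLFTest, two-sided, TMM factors, filterByExpr, group as the only term, all 8 libraries), with Benjamini-Hochberg adjustment over 15638 genes. The script was tested on simulated counts with 50 changed genes at each size. Of these it called 0 at 1.25-fold, 20 at 1.5-fold, 37 at 2-fold and 45 at 4-fold. The simulation had far fewer calls (109, of which 7 were false) than these data (3700). Fewer calls make the adjusted threshold stricter, and in these data Ezh2, Bcor and Bap1 were called at 1.21-fold. The shares recovered therefore do not carry over to these data. How many changes of the members' size were missed here was not tested. Symbols, positions and union exon lengths came from GENCODE M21 (GRCm38), where 46488 of 46983 identifiers were found. Ratios took a pseudocount of 0.5 counts and an exact permutation test (scipy 1.17.1). Alternatives were RLE, upper-quartile and total scaling, other filters, DESeq2 1.42.0, limma voom 3.58.1, a robust fit, an Xist term, each library left out, and, added after seeing the data, removal of the exon length trend (lowess span 0.3).

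Members, lists and tests were chosen with earlier results of these data known. Values were given in every library for called members and for core and catalytic genes (Ezh1, Ezh2, Eed, Suz12, Ring1, Rnf2, Bmi1, Kdm6a, Kdm6b, Bap1). From each other list, up to 4 called genes, those farthest from 0 in log2 fold change with a mean of 1 CPM or more, were named, filled up to 2 with the most abundant. Replicate numbers only name libraries. The mouse numbers in the labels fall into 4 neighbouring pairs of 1 SKO and 1 CTR mouse, which replicates 1 to 4 follow, though the labels do not say what neighbours share. Deviations from the group means correlated at 0.152 to 0.4 between neighbours, and SKO 3 correlated about as well with CTR 2 (0.162). A fit with these pairs as a block was added after seeing the data. No 2 libraries of a group agreed within sampling noise (chi-square per degree of freedom 14.0 to 60.2). Intervals cover 95% of the model's error.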

Additional observations from a re-analysis of the deposited data

Results flagged for a closer look

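In 3 of the 70 groups checked (35 genes in SKO and in CTR), 1 library stood far from the other 3 of its group. Chance gives about 1 in 20 groups. Eed, the PRC2 core gene, had 31.5 CPM in SKO 1, against 25.5 to 25.8 CPM in the other SKO libraries. Mtf2, one of the genes that fell, had 39.1 CPM in SKO 2, against 34.9 to 35.2 CPM in the other SKO libraries, and all 4 stayed below CTR. Asxl2, a partner gene of Bap1, had 56.2 CPM in CTR 4, against 69.2 to 71.5 CPM in the other CTR libraries.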

How the results depend on the processing

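The 10 called members kept their sign in all 19 alternatives, and Mtf2, Phf19, Cbx6 and Cbx7 kept the call in all but the fit with an Xist term. With upper-quartile factors 5 members were lower. With the Xist term 77 genes changed (45 higher, 32 lower), 0 members were called (0 higher, 0 lower), and 0 genes of each of the other 4 lists. Its log2 fold changes turned sign for Ezh1 (0.14), Eed (-0.0899), Rbbp7 (-0.13), Jarid2 (0.12), Ring1 (-0.12), Bmi1 (-0.012), Pcgf1 (-0.11), Phc3 (0.32), Rybp (0.26), Yaf2 (-0.11), L3mbtl2 (-0.44), Kdm6a (0.17), Kdm6b (0.25) and Asxl2 (0.12), none of them called. With the exon length trend removed Ezh1 was at 0.0044. With 1 library left out, members called ranged from 4 to 13, higher from 0 to 3 and lower from 4 to 10. In these fits 16.3% to 27.6% of all genes were called. The S phase and mitosis list had 0 to 4 called genes, the Trithorax list 3 to 9 and the further subunits 6 to 13. Uncalled log2 fold changes crossed 0 for Ezh1 (-0.12 to 0.0043), Rnf2 (-0.024 to 0.14), Cbx8 (-0.0472 to 0.11), Phc1 (-0.21 to 0.0169), Kdm2b (-0.0358 to 0.10) and L3mbtl2 (-0.0821 to 0.12), as did the differences of Kdm6b over Kdm6a (-0.14 to 0.0133) and Rnf2 over Ring1 (-0.16 to 0.0479). The causes were not tested. With neighbouring mouse numbers as a replicate block, 10 members were called (27.6% of all genes): Aebp2 (-0.2114, adjusted p = 0.0604) lost its call, Asxl2 (-0.4199, adjusted p = 0.0219) gained one, and no other member changed its call. Counts of 4 libraries a group limit what small changes can be detected, and depth limits Phf19, with 27 counts in its lowest library.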

Other observations

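A list of 20 genes held the Trithorax group and related histone methyltransferases, and also the demethylase genes Kdm5a, Kdm5b and Kdm5c. Of the 20, 2 rose and 2 fell (20% called, near the background of 23.7%). Kmt2e, which encodes a chromatin protein of the MLL family, had 73.1, 94.0, 115 and 65.7 CPM in SKO, against 160, 175, 150 and 123 CPM in CTR, without overlap (log2 fold change -0.80, edgeR quasi-likelihood adjusted p = 0.00926). Kmt2c, a methyltransferase gene of enhancers, had 83.8, 102, 121 and 82.2 CPM in SKO, against 149, 160, 131 and 116 CPM in CTR, with SKO 3 inside the CTR range (log2 fold change -0.52, edgeR adjusted p = 0.0242). The Kmt2c call ended without SKO 1, SKO 4, CTR 1 or CTR 2 (edgeR adjusted p up to 0.0668). Setd1a, a promoter methyltransferase gene, rose with 37.8 to 40.5 CPM in SKO, against 28.2 to 31.3 CPM in CTR (log2 fold change 0.39, edgeR adjusted p = 0.00443). Men1, which encodes menin, rose with 33.3 to 36.5 CPM in SKO, against 26.4 to 29.9 CPM in CTR (log2 fold change 0.30, edgeR adjusted p = 0.0157). Without SKO 3, 9 genes of this list were called, in a fit that called 27.6% of all genes.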
